A study of Homo sapiens with 8 samples.

Results

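The SLAM (signalling lymphocytic activation molecule) family was described in DND41 cells, an established human line of T-cell acute lymphoblastic leukemia. Its members were listed by gene symbol and comprised the 7 receptor genes of a cluster on chromosome 1 (CD244, LY9, SLAMF1, SLAMF6, SLAMF7, CD48 and CD84) and the adaptor gene SH2D1A on the X chromosome, 8 of the 18133 rows of the expression table. Every one of the 8 symbols was found. Messenger RNA was measured after 72 h of doxycycline, given to all groups including the controls, in medium with 10% serum. Doxycycline induced a short hairpin RNA against SIRT1, a nuclear NAD-dependent deacetylase, or a control hairpin. The labels call the SIRT1 hairpins sh1 and sh3. Libraries A, B and C were measured for either of them, and libraries A and C for the control hairpin. For library C of sh3 the title and genotype say SIRT1 knockdown while the description names the control hairpin. It was analysed as sh3, and its lowest rank correlation with another sh3 library was 0.996, against a highest of 0.992 with a control. The labels speak of plating in triplicate and do not say whether infections were separate, so p-values measure the spread between these libraries, which may be technical. Wild-type cells without a hairpin were not analysed here.

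SLAM receptors are immunoglobulin-type proteins on the surface of T, B, natural killer (NK) and other blood cells. Most of them bind a copy of themselves on a neighbouring cell, whereas CD244 (2B4) binds CD48, which is held in the membrane by a lipid anchor and has no signalling tail. The tails of the other receptors carry tyrosine motifs that recruit small SH2-domain adaptors. For most of them, though not SLAMF7, this includes SAP, encoded by SH2D1A, and SAP in turn brings in the kinase FYN. In the thymus this pathway is known for the selection of innate-like T cells by contacts between thymocytes, and loss of SH2D1A causes X-linked lymphoproliferative disease.

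The deposited values are normalized counts, whose sums ran from 33087820 to 34072666 per library. SIRT1 stood at 1745 and 1919.5 normalized counts in the controls, 1259, 1312 and 1329 with sh1, and 1099, 1217 and 1179 with sh3, so all 6 knockdown libraries lay below both controls. On the log2(normalized count + 1) scale used for every change given here, SIRT1 was lower by 0.57 ± 0.063 (SE) over both hairpins (adjusted p = 0.000297, limma with Benjamini-Hochberg adjustment over 13885 genes). With sh1 alone, log2 change -0.49, the call was lost without control C (adjusted p = 0.0504). T cell identity was checked on 14 marker genes, of which 13 were found: CD3D (10910 to 16680) and CD3E (18530 to 26150) were high in all libraries, while CD4 was at 0 to 6.92 and CD8A at 16.1 to 49.2.

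Of the 8 members, 6 passed the filter of a mean of at least 10 normalized counts over the 8 libraries and were tested. In the mean of both hairpins against control, CD244, CD84 and SH2D1A were called lower at an adjusted p under 0.05 (limma) and none higher, where 12.7% of all tested genes were called in either direction, 6.19% lower and 6.55% higher. In 4 of the 6, which adds SLAMF1, all knockdown libraries lay below both controls, as they did for 11.4% of genes. The members' median log2 change was -0.46, beside -0.0022 over all tested genes. With sh1 against control 4 of the 6 were lower (CD244, LY9, CD84 and SH2D1A) and none higher, against a background of 6.31%, with 3.43% lower and 2.88% higher. With sh3 against control 4 were lower (CD244, SLAMF1, CD84 and SH2D1A) and LY9 was higher, against a background of 18.6%, with 9.19% lower and 9.36% higher. CD244, CD84 and SH2D1A were called lower with each hairpin, and 3.86% of all genes were called in the same direction with both. Between the hairpins, CD244 was higher and LY9 lower with sh1, where 5.61% of genes were higher and 5.83% lower. With sh1 5 of the 6 lay wholly below the controls (18.9% of genes did), and with sh3 4 lay below (25.1%) and LY9 above (24.8%). The median log2 change of the tested members was -0.83 with sh1 and -0.59 with sh3, and both comparisons share the control libraries. These shares describe members chosen with earlier results known, and leaving out control C left 1 called member in each of the 3 comparisons, which was CD244. The plot of normalized counts by library shows each member in the 3 groups.

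**Figure D1:**
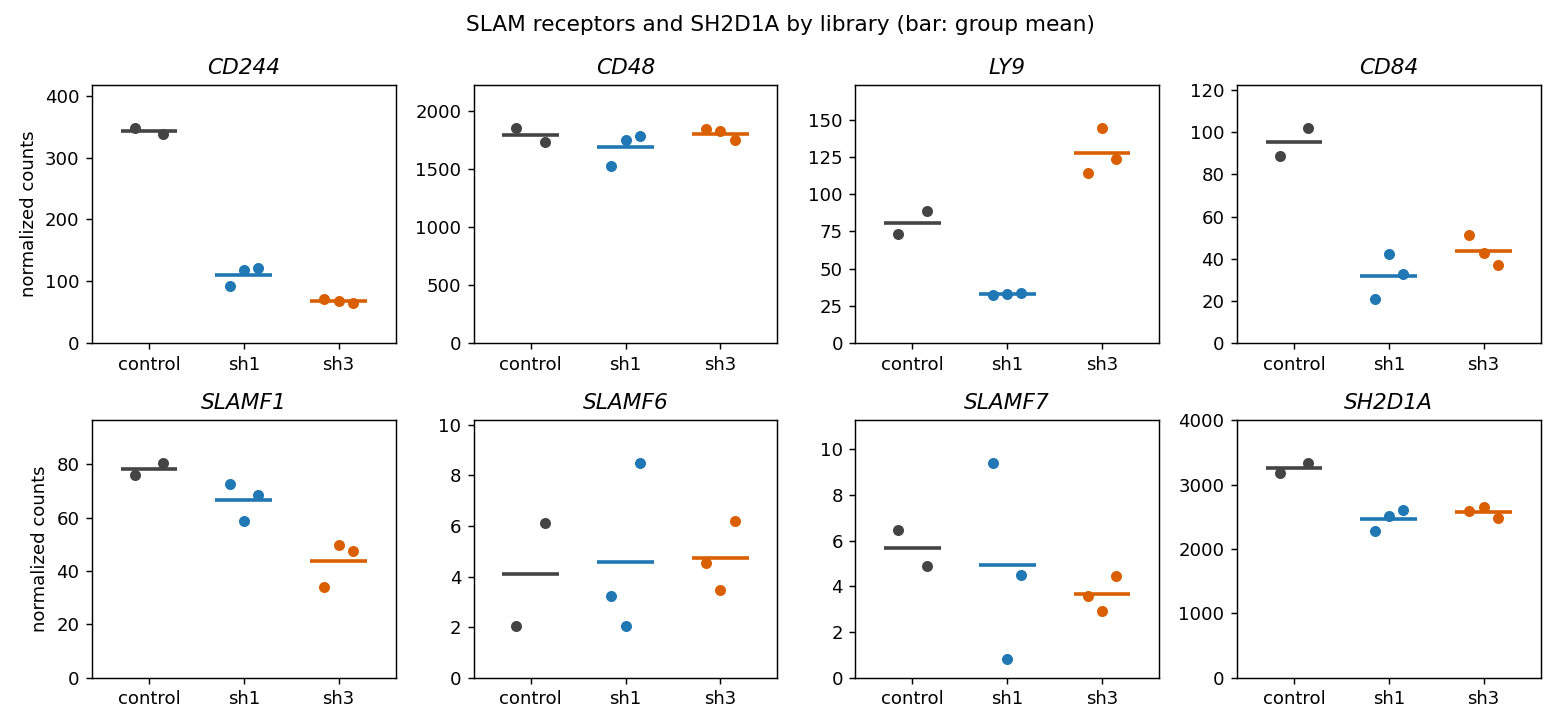
Normalized counts (vertical axis, linear from 0, scaled per gene) of the 8 members in each library, with control, sh1 and sh3 on the horizontal axis; points are libraries and bars are group means. CD244 falls from 339 to 348 in the controls to between 64.9 and 122 in the knockdown libraries, LY9 lies below the controls with sh1 and above them with sh3, and CD48 overlaps in all groups.

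CD244 was the member with the largest change. It encodes an activating or inhibitory receptor of NK cells and of some T cells, depending on the adaptor it meets, and its ligand is CD48. Because CD244 and CD48 are receptor and ligand from one gene cluster and moved unlike each other, the bases upstream of their RefSeq starts (GRCh38.p14) are shown, 250 for CD244 (chr1:160862888-160863137, minus strand) and 221 for CD48 (chr1:160711852-160712072, minus strand, where the window ends at the first annotated exon). Capitals mark the letters TGGGAA, the core bound by RBPJ, the DNA-binding partner of NOTCH1.
CD244: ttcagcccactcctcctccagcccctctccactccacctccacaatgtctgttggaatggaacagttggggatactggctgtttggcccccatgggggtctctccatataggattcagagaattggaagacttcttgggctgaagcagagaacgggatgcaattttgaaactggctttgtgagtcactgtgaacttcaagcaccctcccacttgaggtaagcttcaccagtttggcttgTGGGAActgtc
CD48: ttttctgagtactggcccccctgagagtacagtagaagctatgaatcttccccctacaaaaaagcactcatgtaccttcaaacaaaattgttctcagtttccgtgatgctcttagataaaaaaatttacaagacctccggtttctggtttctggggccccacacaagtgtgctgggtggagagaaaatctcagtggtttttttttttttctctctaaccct

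The CD244 stretch held 1 TGGGAA, beginning 11 bases before the start, and the CD48 stretch held none on either strand. Among 35116 RefSeq promoter windows of 250 bases, 20.8% held TGGGAA on either strand. Of the other letters searched on both strands, the E-box CANNTG was found at 2 places for CD244 and 1 for CD48 (61.8% of all windows), and the GATA core AGATAA at 1 place for CD48 and none for CD244 (9.17%). The RUNX core TGTGGT (11.0% of windows) and the TCF/LEF core CTTTGA (11.2%) were in neither stretch. These letters were chosen after the sequences had been seen, a match is a description of letters and not of binding, and RefSeq promoter windows matched 5 of the 8 members by symbol. Those of SLAMF1 and SH2D1A lie mostly in annotated exons, and SLAMF6 was too low to be tested.

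CD244 (ENSG00000122223; GRCh38 chromosome 1, 160830160 to 160862855, minus strand) was at 348 and 339 normalized counts in the controls. With sh1 it stood at 91.5, 118 and 122, and with sh3 at 70.8, 67.8 and 64.9. The 3 groups did not overlap, and the order control, sh1, sh3 held for every library. The group means were 343 ± 6.42 (SD, n = 2), 111 ± 16.6 (n = 3) and 67.8 ± 2.94 (n = 3). Over both hairpins the log2 change was -1.98 ± 0.15 (SE), 3.95-fold lower (adjusted p = 3.27e-05, limma), and 33 of the 13885 tested genes fell further. The fall was 3.11-fold with sh1 (log2 change -1.64 ± 0.16, adjusted p = 0.00027) and 5.01-fold with sh3 (-2.32 ± 0.16, adjusted p = 7.2e-06, limma). CD244 was higher with sh1 than with sh3 by 0.69 ± 0.15 (adjusted p = 0.0116, limma), a comparison in which 11.4% of all tested genes were called. No control enters that difference of means, but the spread behind its p-value was estimated from all 8 libraries. Each of these calls was kept in every alternative, the sh1 against sh3 difference at adjusted p up to 0.048. A processed pseudogene, PPIAP37, lies inside the CD244 gene on the other strand. The libraries were strand-specific per the labels' protocols, but the sources used here do not say whether counting kept the strand.

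CD48, the ligand of CD244 (ENSG00000117091; 160678746 to 160711851, minus strand), was not called in any comparison. Its normalized counts were 1854 and 1737 in the controls, 1529, 1751 and 1785 with sh1, and 1844, 1827 and 1746 with sh3. All groups overlapped, and the lowest value was a single sh1 library. Over both hairpins the log2 change was -0.042 with a 95% interval of -0.19 to 0.10 (adjusted p = 0.735, limma). The interval was -0.25 to 0.071 with sh1 and -0.15 to 0.17 with sh3. The number of CD48 normalized counts per CD244 normalized count was therefore 5.12 to 5.33 in the controls, 14.6 to 16.7 with sh1 and 26.1 to 26.9 with sh3, with no overlap between groups. CD244 made up 14.2% to 14.4% of the summed normalized counts of the 7 receptors in the controls, 5.20% to 5.93% with sh1 and 3.17% to 3.34% with sh3. Neither the ratio nor the share was divided by gene length, so they compare groups and not the levels of different genes. An antisense gene, AL121985.1, overlaps CD48. In bulk RNA, fewer cells carrying a transcript and less of it per cell cannot be told apart, which applies to every member.

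LY9 moved in opposite directions with the 2 hairpins. It encodes Ly9 (CD229), a receptor that binds itself and is found on most T and B cells. In the controls LY9 (ENSG00000122224; 160796074 to 160828261, plus strand) stood at 73.3 and 88.6 normalized counts. With sh1 the 3 libraries lay close together at 32.5, 33.1 and 33.4, and with sh3 they were at 114, 145 and 124. No library of one group entered the range of another, sh1 lying below the controls and sh3 above them. The group means were 81.0 ± 10.9 (SD, n = 2) in the controls, 33.0 ± 0.473 (n = 3) with sh1 and 127 ± 15.6 (n = 3) with sh3.

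LY9 fell 2.40-fold with sh1 (log2 change -1.26 ± 0.19, adjusted p = 0.00425, limma) and rose 1.57-fold with sh3 (0.65 ± 0.19, adjusted p = 0.039). The mean over both hairpins, -0.31 ± 0.17 (adjusted p = 0.271), averages the 2 directions. Between the hairpins LY9 was lower with sh1 by 1.91 ± 0.17, a 3.76-fold difference (adjusted p = 4.73e-05, limma), and 19 of 13885 genes were further below. That difference kept its call in every alternative, from -1.99 to -1.79 with adjusted p up to 0.00091. Being called in opposite directions by the 2 hairpins was rare among all genes, at 22 genes or 0.158%, and LY9 was the only such member. The rise with sh3 was less firm: it lost its call on leaving out any one library of sh3 or of the control, with log2 changes from 0.51 (adjusted p = 0.204, without control A) to 0.78 (adjusted p = 0.0919, without control C), and without the filter on low values (adjusted p = 0.0541). The fall with sh1 lost its call only without control C (-1.13, adjusted p = 0.0661).

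**Figure D2:**
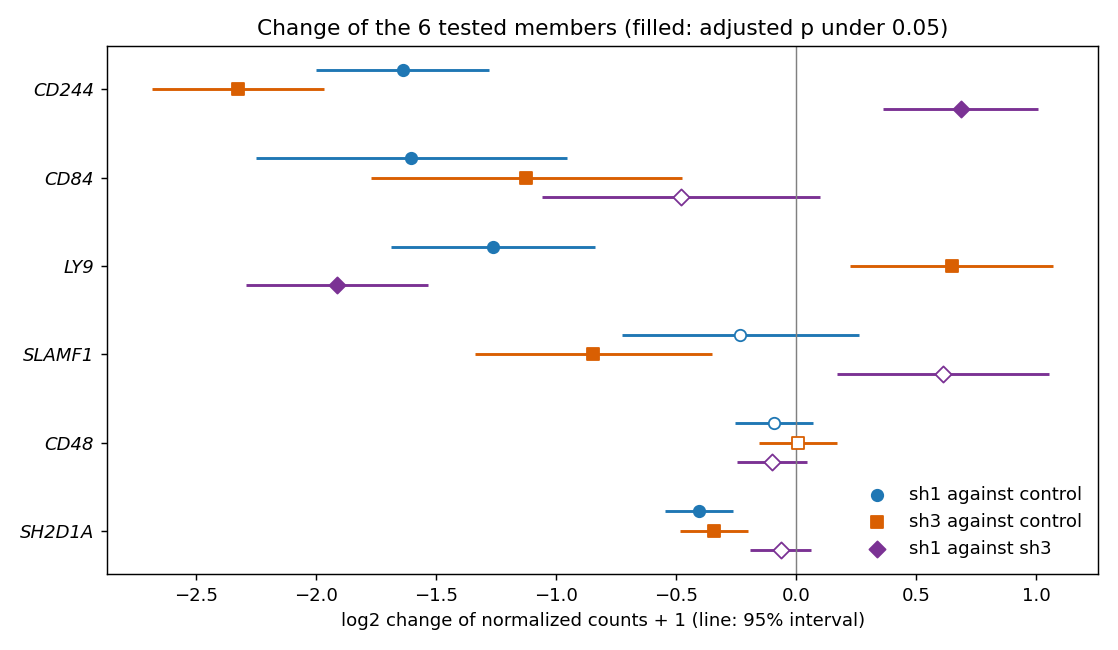
Log2 changes of the 6 tested members with 95% intervals (horizontal axis, normalized counts + 1): blue circles, sh1 against control; orange squares, sh3 against control; purple diamonds, sh1 against sh3; filled symbols have an adjusted p under 0.05. LY9 lies at -1.26 with sh1 and 0.65 with sh3, CD244 and CD84 lie below 0 with both, and the CD48 intervals all include 0.

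CD84, a self-binding receptor of T, B and myeloid cells and platelets, was lower with both hairpins. CD84 (ENSG00000066294; 160541095 to 160579516, minus strand) was at 88.7 and 102 normalized counts in the controls, 20.8, 42.0 and 32.8 with sh1, and 51.1, 42.5 and 37.0 with sh3. All 6 knockdown libraries lay below both controls, while the 2 hairpin groups overlapped. Group means were 95.4 ± 9.45 (SD, n = 2), 31.9 ± 10.6 (n = 3) and 43.5 ± 7.08 (n = 3). The fall was 2.57-fold over both hairpins (log2 change -1.36 ± 0.26, adjusted p = 0.00776, limma), 3.04-fold with sh1 (-1.60 ± 0.30, adjusted p = 0.0115) and 2.18-fold with sh3 (-1.12 ± 0.30, adjusted p = 0.0228). The hairpins were not shown to differ: sh1 minus sh3 was -0.48 with an interval of -1.06 to 0.10 (adjusted p = 0.288, limma). Without control C the calls were lost, at -1.26 over both hairpins (adjusted p = 0.11), -1.50 with sh1 (adjusted p = 0.108) and -1.02 with sh3 (adjusted p = 0.159). Each hairpin's call was also lost without control A (-1.70, adjusted p = 0.0524, with sh1; -1.22, adjusted p = 0.0697, with sh3), and that of sh3 without sh3 B (-1.11, adjusted p = 0.0587) or sh3 C (-1.02, adjusted p = 0.0609), and without a variance trend neither hairpin's call held (adjusted p = 0.0528 and 0.0525). An antisense gene, AL138930.1, overlaps CD84.

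SLAMF1 encodes SLAM itself (CD150), the self-binding receptor after which the family is named and an entry receptor of measles virus. SLAMF1 (ENSG00000117090; 160608100 to 160647295, minus strand) stood at 75.8 and 80.5 normalized counts in the controls, 72.7, 58.7 and 68.5 with sh1, and 34.0, 49.6 and 47.4 with sh3. Every knockdown library was below both controls, narrowly for sh1 A, and all sh3 libraries were below all sh1 libraries. The means were 78.2 ± 3.34 (SD, n = 2), 66.6 ± 7.20 (n = 3) and 43.6 ± 8.44 (n = 3). Only with sh3 was the difference called, 1.80-fold lower (log2 change -0.85 ± 0.23, adjusted p = 0.0241, limma). The log2 change was -0.23 ± 0.23 with sh1 (adjusted p = 0.593) and -0.54 ± 0.20 over both hairpins (adjusted p = 0.102). The difference between hairpins, 0.61 ± 0.20 (interval 0.17 to 1.05), did not pass after adjustment (adjusted p = 0.0743, limma), so a hairpin-specific response of SLAMF1 was not shown. The sh3 call was lost without sh3 A (-0.68, adjusted p = 0.0765), control A (-0.89, adjusted p = 0.0795) or control C (-0.80, adjusted p = 0.146).

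SLAMF6 (ENSG00000162739; 160485030 to 160523262, minus strand), the gene of Ly108, and SLAMF7 (ENSG00000026751; 160739057 to 160754821, plus strand), the gene of CRACC, were near the floor. SLAMF6 was at 2.06 and 6.12 normalized counts in the controls, 3.21, 2.05 and 8.50 with sh1 and 4.52, 3.46 and 6.18 with sh3. SLAMF7 was at 6.46 and 4.87 in the controls, 9.41, 0.814 and 4.51 with sh1 and 3.60, 2.90 and 4.44 with sh3. The lowest values of a library pile up in steps of 0.885 to 1.15 normalized counts, so these values rest on few steps. SLAMF6 overlapped in all groups. The sh3 values of SLAMF7 lay below both controls, sh1 spanned them, and neither gene was tested.

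SH2D1A, the adaptor, was the most abundant member and changed least among those called. SH2D1A (ENSG00000183918; chromosome X, 124227868 to 124373197, plus strand) was at 3177 and 3339.5 normalized counts in the controls, 2279, 2514 and 2597 with sh1, and 2593, 2644 and 2475 with sh3. All 6 knockdown libraries lay below both controls and the 2 hairpin groups overlapped. Means were 3258 ± 115 (SD, n = 2), 2463 ± 165 (n = 3) and 2571 ± 86.8 (n = 3). The log2 change was -0.37 ± 0.058 over both hairpins (adjusted p = 0.0026, limma), -0.41 ± 0.065 with sh1 (adjusted p = 0.0057) and -0.34 ± 0.065 with sh3 (adjusted p = 0.00468), which made the level 1.30-fold lower over both. Between hairpins it differed by -0.063 (interval -0.19 to 0.064, adjusted p = 0.55, limma). Without control C these became -0.34 (adjusted p = 0.0556), -0.37 (adjusted p = 0.0734) and -0.31 (adjusted p = 0.0589), and without a variance trend the adjusted p with sh1 was 0.0515.

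In GENCODE 29 the SH2D1A gene overlaps STAG2, a cohesin subunit gene on the same strand, along with TEX13D and the pseudogenes NPM1P34 and AL022718.1, so reads shared between them cannot be told apart from these values. STAG2 moved the other way, by 0.23 ± 0.046 over both hairpins (adjusted p = 0.00819, limma), from 13135 ± 733 (SD, n = 2) normalized counts in the controls to 14725 ± 293 (n = 3) with sh1 and 16178 ± 680 (n = 3) with sh3. Without control C it was 0.18 (adjusted p = 0.141). Within 500 kb of SH2D1A, 3 of 5 other genes were tested, and THOC2, of the mRNA export machinery, was also higher (0.15, adjusted p = 0.0296, limma), a call lost without control A (0.16, adjusted p = 0.105), control C (0.14, adjusted p = 0.198), sh1 B, sh3 A or sh3 B. XIAP, an inhibitor of caspases whose loss also causes X-linked lymphoproliferative disease, was at 0.25 over both hairpins (adjusted p = 0.0531, limma). With sh3 it was at 0.34 (adjusted p = 0.0193, limma), a call lost in 5 alternatives. XIAP was named after its value had been seen. Over both hairpins 2 of the 3 were called higher, where 6.55% of all genes were. With sh3 all 3 were called higher, where 9.36% of all genes were, and with sh1 none was called.

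Levels of different genes can be set side by side only per length, and here normalized counts were divided by the kilobases of all annotated exons of a gene. In the controls this gave 1064 ± 37.5 per kb for SH2D1A, 548 ± 25.4 for CD48, 120.2 ± 2.25 for CD244, 18.3 ± 0.782 for SLAMF1, 10.3 ± 1.02 for CD84, 8.88 ± 1.19 for LY9, 1.49 ± 1.05 for SLAMF6 and 1.17 ± 0.233 for SLAMF7 (SD, n = 2). CD84 (9.58 to 11.0) and LY9 (8.04 to 9.72) overlapped between the 2 controls, as did SLAMF6 and SLAMF7. With the median length of coding transcripts in place of all exons, CD84 came before SLAMF1 and SLAMF7 before SLAMF6. By that length CD84 (85.4) and LY9 (36.6) were also further apart in the controls, so their closeness depends on the length used. Per kb of exons CD244 kept its place behind SH2D1A and CD48 in each group, at 38.7 with sh1 and 23.7 with sh3. LY9 came after SLAMF1 and CD84 in the controls, and with sh3 it came before both, at 14.0 against 10.2 for SLAMF1 and 4.70 for CD84. With sh1 LY9 (3.62) and CD84 (3.44) were close to each other per kb of all exons.

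The 7 receptor genes span 377.8 kb, in the order SLAMF6, CD84, SLAMF1, CD48, SLAMF7, LY9 and CD244. CD244 and LY9 face each other with their 3′ ends 1.9 kb apart, whereas the other neighbours are 17.83 to 41.25 kb apart. This pair was also the least alike of the tested members: with sh3 CD244 was at a log2 change of -2.32 and LY9 at 0.65. With sh1 both were called lower, CD244 at -1.64 and LY9 at -1.26. CD48, with no call, lies between SLAMF1 and SLAMF7. Of the 36 other genes annotated within 500 kb of the cluster and found in the table, 30 were tested. Over both hairpins 1 was higher and 1 lower (limma), 2 of 30 where 12.7% of all genes were called, and their median log2 change was -0.022. Over all 30 the log2 changes ran from -1.22 to 1.05 with sh1 and from -0.36 to 1.11 with sh3, so that LY9 with sh3 lay inside the range of its neighbours, and with sh1 it lay close to the low-count KLHDC9 at -1.22. CD244 and CD84 lay below all 30 with both hairpins, as did LY9 with sh1 (-1.26) and SLAMF1 with sh3 (-0.85). The 24 neighbours with a mean of at least 100 normalized counts ran from -0.31 to 0.15 with sh1 and from -0.36 to 0.27 with sh3, but LY9, CD84 and SLAMF1 have lower means than these. The genes next to the cluster, VANGL2 (log2 change 0.046, adjusted p = 0.797, limma) and F11R (0.020, adjusted p = 0.915), were not called. Those called were NCSTN, a subunit of gamma-secretase (-0.20, adjusted p = 0.0472), and the low AL139011.2 (1.08, adjusted p = 0.0257, limma), and neither was firm. NCSTN lost its call on leaving out any one library, with adjusted p up to 0.228 without control C, and AL139011.2 without control C (0.63, adjusted p = 0.309) or sh3 B (1.0, adjusted p = 0.0505). The plot of log2 change against gene position shows the receptors among these neighbours.

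**Figure D3:**
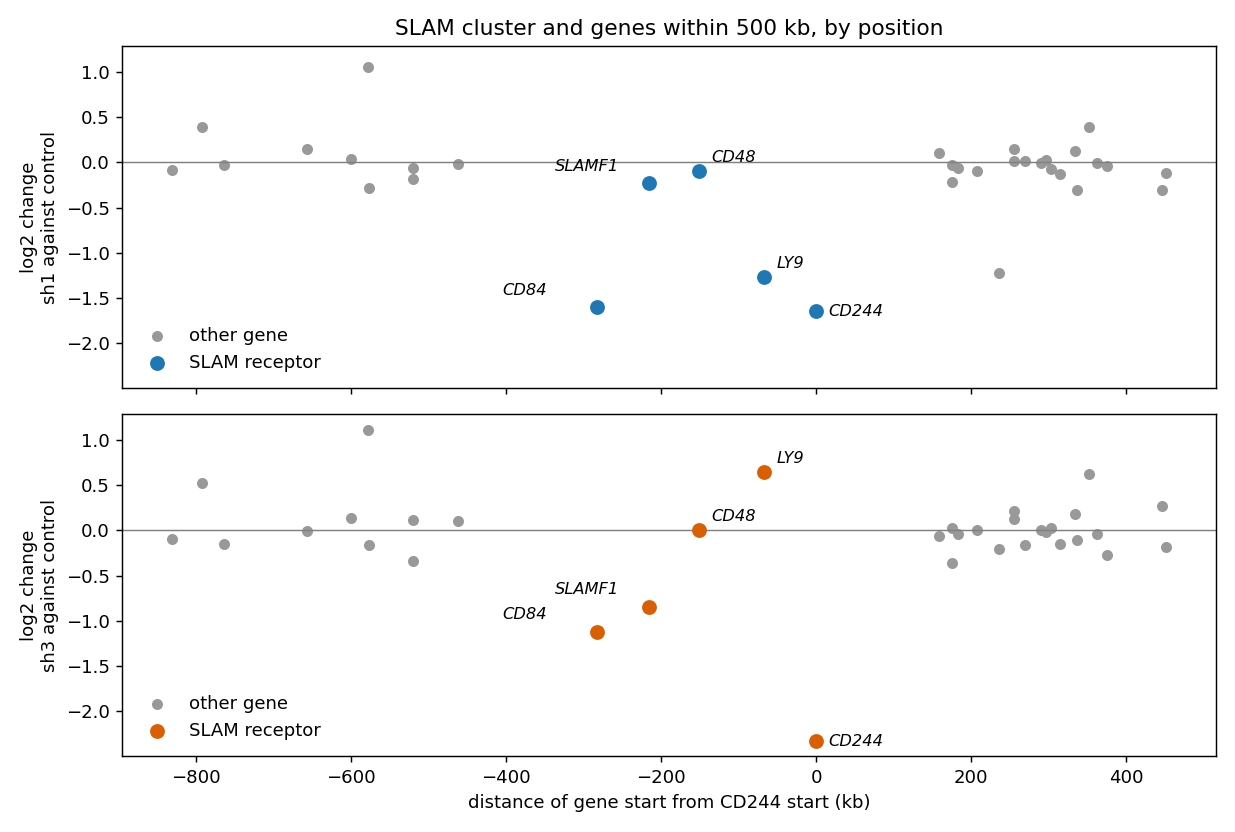
Log2 change against control (vertical axes; sh1 in the upper panel, sh3 in the lower) of tested genes within 500 kb of the SLAM cluster, by the distance of the gene start from that of CD244 in kb (horizontal axis); grey points are other genes and coloured points SLAM receptors. CD244, CD84 and LY9 lie below the neighbours in the upper panel, and CD244, CD84 and SLAMF1 in the lower. LY9 changes sides between panels, from -1.26 to 0.65.

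Downstream of the receptors, a list of 25 genes of SLAM signalling was described, all of which were tested. It holds SRC-family kinases, phosphatases, adaptors and further enzymes that act with SAP or with the tyrosine motifs. Over both hairpins 5 were lower (FGR, LCK, FYN, CSK and SH3BP2) and 1 higher (ARHGEF7), 6 of 25 where 12.7% of all genes were called, with a median log2 change of -0.017. With sh1 4 of 25 were lower and none higher (6.31% of all genes were called), and with sh3 5 were lower and 2 higher (18.6% of all genes).

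FYN, the kinase that SAP recruits, was at 7139 ± 202 (SD, n = 2) normalized counts in the controls, 5124 ± 333 (n = 3) with sh1 and 6102 ± 422 (n = 3) with sh3. Its log2 change was -0.35 ± 0.061 over both hairpins (adjusted p = 0.00433, limma) and -0.48 with sh1 (adjusted p = 0.0029). FYN was lower with sh1 than with sh3 by 0.25 (adjusted p = 0.0214). Without control C the change over both hairpins was -0.33 (adjusted p = 0.0778), and the sh3 value of -0.23 (adjusted p = 0.0398) lost its call in 8 alternatives, down to -0.17 without sh3 B (adjusted p = 0.129).

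LCK, the kinase of the T cell receptor coreceptors, had a control mean of 5286 ± 106 (SD, n = 2), against 4015 ± 117 under sh1 and 4424 ± 28.0 under sh3 (n = 3 each) (log2 change -0.33 ± 0.042, adjusted p = 0.000853, limma). FGR, a SRC-family kinase best known from myeloid cells, had the largest fall of the list, at 777 ± 8.79, 347 ± 10.9 and 305 ± 18.7 in the same groups (-1.26 ± 0.084, adjusted p = 1.67e-05). Both kept their calls in every alternative. SH3BP2, an adaptor that binds CD244, was at -0.35 (adjusted p = 0.0204, limma). CSK, which restrains SRC-family kinases, was at -0.24 (adjusted p = 0.0144). ARHGEF7, an exchange factor for RAC and CDC42, was at 0.30 (adjusted p = 0.0273), with 0.54 under sh3 (adjusted p = 0.0018, limma) and an uncalled 0.062 under sh1 (adjusted p = 0.725). These 3 were named after their values had been seen and all lost their calls without control C, at -0.33 (adjusted p = 0.171), -0.20 (adjusted p = 0.175) and 0.21 (adjusted p = 0.295). SH3BP2 also lost its call without control A (-0.37, adjusted p = 0.0856), and ARHGEF7 without sh1 B, sh3 A or sh3 B (adjusted p = 0.0513 to 0.0567). The second gene higher with sh3, the phosphatase PTPN6, was low, at 21.0 in the controls and 45.2 with sh3 (1.07, adjusted p = 0.0351, limma), and lost its call without any one sh3 or control library. The plot of partner changes shows all 25 genes.

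**Figure D4:**
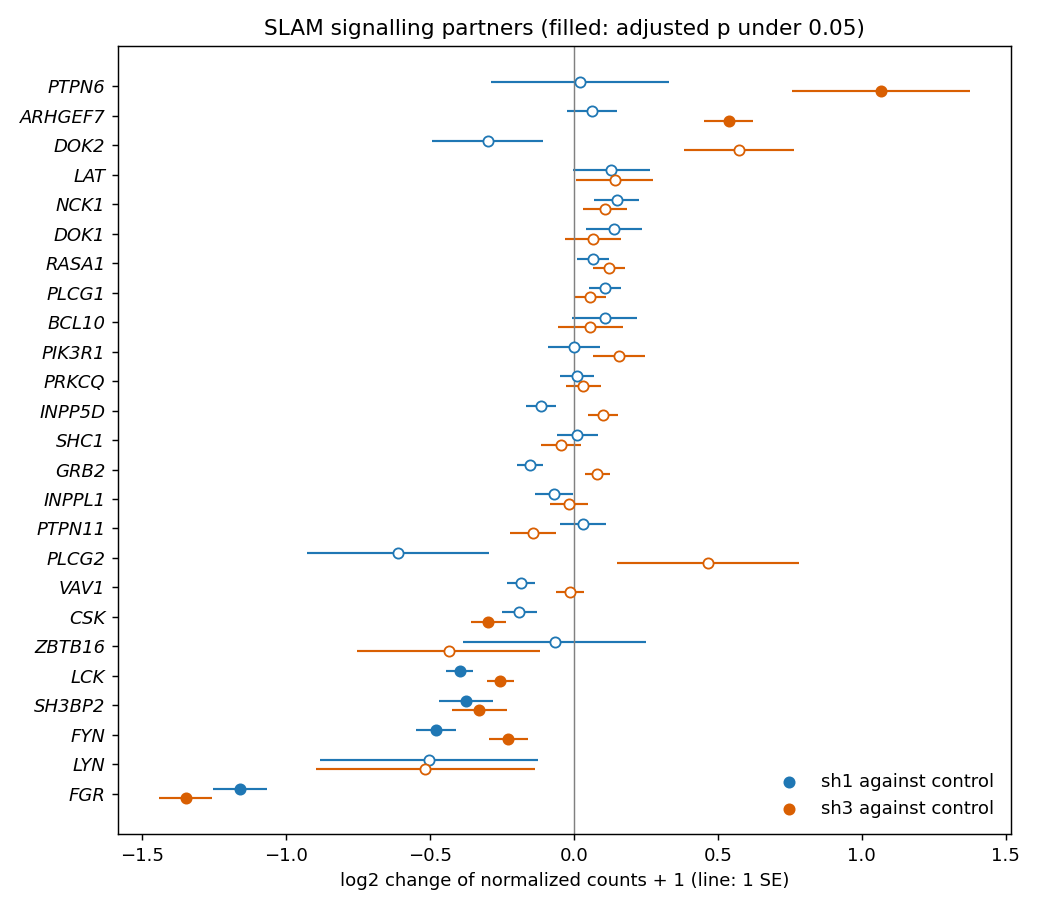
Log2 change against control (horizontal axis, normalized counts + 1, lines 1 SE) of the 25 SLAM signalling partners, with sh1 in blue and sh3 in orange; filled points have an adjusted p under 0.05. FGR lies furthest to the left with both hairpins, and most partners lie near 0.

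Of 6 further genes related to the family, 3 were found and tested. Over both hairpins 1 was called, where 12.7% of all genes were. CD2, an adhesion receptor of T cells related to SLAM receptors that binds CD48 weakly in humans, stood at 59.6 ± 4.84 (SD, n = 2) normalized counts in the controls, 22.8 ± 3.80 (n = 3) with sh1 and 21.0 ± 4.10 (n = 3) with sh3, lower over both hairpins (log2 change -1.42 ± 0.26, adjusted p = 0.00565, limma). All 6 knockdown libraries lay below both controls. Without control C the change was -1.34 and the call was lost. With sh1 alone (-1.36, adjusted p = 0.0206, limma) the call was lost without sh1 B (adjusted p = 0.0568), control A or control C. With sh3 alone (-1.48, adjusted p = 0.00543) it was lost without control C.

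For each member with a log2 change of at least 0.5 in size over both hairpins, the genes with the most similar profile were sought among 11398 genes with a mean of at least 50. Likeness was the root mean square difference of log2 values over the 8 libraries, each gene centred on its control mean. For CD244 these were CTSG (0.246), which encodes the protease cathepsin G, LSAMP (0.369) and GPC3 (0.416). CTSG had log2 changes of -1.57 with sh1 and -2.63 with sh3, ordered as CD244. The nearest to CD84 were RAB37 (0.287), TNFSF8 (0.330) and UMODL1 (0.388), and the nearest to SLAMF1 were CISH (0.135), SLC2A6 (0.137) and ADAM8 (0.140). None of these 9 genes is a member. Among the members, CD48 and SH2D1A had the smallest difference (0.291) and CD244 and LY9 the largest (1.84). CD244 and CD48 were at 1.71, and CD244 and CD84 at 0.759. The measure is small wherever both genes change little, and SH2D1A was called lower with each hairpin while CD48 was not called.

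Marker genes of T and other blood cells moved in the same libraries, and their part in the member results was not tested. Of 12 tested T cell markers 8 were lower and none higher over both hairpins (limma), where 6.19% of all genes were lower and 12.7% called either way, and 5 were called without control C. Among them were CD7 (log2 change -0.61, adjusted p = 8.9e-05), CD1A (-1.0, adjusted p = 0.000121) and CD3D (-0.45, adjusted p = 0.000267). The list, which shares LCK and LAT with the partners and CD2 with the related genes, summed to 83223 to 87082 normalized counts in the controls, 70050 to 73205 with sh1 and 62349 to 63359 with sh3. The means of CD244 and SLAMF1 had the same order of groups as this sum (control, sh1, sh3), and those of LY9, CD84 and SH2D1A did not. CD3E and CD3D weigh most in the sum, and single markers differed in the order of the hairpins. The mean of CD7 was 9848 with sh1 and 7074 with sh3, while that of LCK was 4015 with sh1 and 4424 with sh3. NK cells are those for which CD244 is best known. Of 15 NK markers 10 were found and 6 tested: 2 were lower (EOMES at -0.76, adjusted p = 0.0111, and PRF1 at -0.28, adjusted p = 0.0201, limma) and none was higher. Both lost their calls without either control, with adjusted p from 0.0807 to 0.171. With sh3 alone TBX21, chosen after its value was seen, was called higher (0.93, adjusted p = 0.0435, limma). Their list's sum was 1987 to 2009 in the controls, 1735 to 1811 with sh1 and 1840 to 1894 with sh3, NCR3 was at 0 in 2 libraries, and KLRB1 ran from 1.02 to 5.30. Of 8 B cell markers found, 5 were tested. Over both hairpins EBF1 was higher (0.42) and CD79A (-0.25) and BLK (-0.23) lower. CD79A and BLK lost their calls without control C (-0.20 and -0.25), and BLK also without control A (-0.20). With sh1 CD79A (-0.43) and BLK (-0.29) were called lower and none higher, where 6.31% of all genes were called. With sh3 EBF1 (0.70) and CD79B (0.56), the latter chosen after its value was seen, were called higher and none lower, where 18.6% were called. EBF1 with sh1 (0.14, adjusted p = 0.287, limma) and CD79A with sh3 (-0.059, adjusted p = 0.48) were not called. CD79A ran from 17609 to 25708 in all libraries while PAX5 was at 0 to 5.49, and the list summed to 27204 to 28882 in the controls, 20385 to 22192 with sh1 and 27055 to 28556 with sh3. No myeloid marker was called of 3 tested, and none of the erythroid list passed the filter. Of 3 genes tested from the adherent-cell list PECAM1 was lower (-0.42, adjusted p = 0.023, limma), a call lost without control A (-0.44) or control C (-0.40). PECAM1 was at 514 to 806 in all libraries, and whether this reflects adherent cells was not tested.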

How the data were processed

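Strand-specific RNA libraries were sequenced, per the labels' protocols. The deposited values are a signal, normalized counts per gene symbol made by the authors, with kallisto 0.44.0, DESeq and hg38 named in the submitters' processing notes. For annotation and gene summary: not given in the sources used here. Values were not whole. The share of a library's low values within 0.02 steps of a whole multiple of its lowest step was 34.1% to 49%, so reads were not recovered and no count test was used.

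Values were analysed as log2(value + 1), which understates changes of low genes, in 13885 genes. A filter on means under 10 had removed 4248 rows. A limma 3.58.1 model (R 4.3.3) of all 8 libraries held 3 group means and a variance trend, with 5 residual degrees of freedom. Its SEs, intervals and p-values borrow spread from the other genes (empirical Bayes), which gave 11.4 degrees of freedom in total. Tests were two-sided, with Benjamini-Hochberg adjustment over all genes tested and calls at an adjusted p under 0.05. The procedure was tested on simulated data. Gene positions and exon lengths came from GENCODE 29, and promoter sequences from RefSeq. Named genes were the 8 members, SIRT1, the 3 most similar profiles, and the 3 called genes with the smallest p of each list or neighbourhood. The members and all gene lists were chosen with earlier results of these data known. Alternatives covered the pseudocount, filter, scaling, variance trend, pairing by letter and leaving out each library.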

Additional observations from a re-analysis of the deposited data

Results flagged for a closer look

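Tested differences between the 2 hairpins are listed here as sh1 minus sh3 on the log2 scale, all with limma and Benjamini-Hochberg adjustment over 13885 genes. Among members, CD244 differed by 0.69 (adjusted p = 0.0116) and LY9 by -1.91 (adjusted p = 4.73e-05). LY9 was the member whose hairpins moved it to opposite sides of the controls. Of the signalling partners, FYN differed by -0.25 (adjusted p = 0.0214), ARHGEF7 by -0.48 (adjusted p = 0.00221) and the low PTPN6 by -1.05 (adjusted p = 0.031). Of the T cell markers, CD7 differed by 0.48 (adjusted p = 0.00024), CD1A by 0.65 (adjusted p = 0.0013) and CD3D by 0.25 (adjusted p = 0.00617), each being lower with sh3. Of the B cell markers, EBF1 differed by -0.56 (adjusted p = 0.000202) and CD79A by -0.37 (adjusted p = 0.000419). NCSTN, near the cluster, differed by 0.27 (adjusted p = 0.0117). Of the genes with profiles like those of members, CTSG differed by 1.06 (adjusted p = 0.00118), CISH by 0.72 (adjusted p = 3.07e-05) and TNFSF8 by -0.65 (adjusted p = 0.0277). SIRT1 itself differed by 0.16 between hairpins (adjusted p = 0.135). No cause of any of these differences was tested.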

How the results depend on the processing

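Of 450 values of members recomputed under the alternatives, 419 kept their direction and side of the threshold, 25 lost their call, none gained one and 6 changed sign without being called either time. Called members over both hairpins numbered 3, and 1 to 3 on leaving out a library, with 1 without control C. With sh1 they numbered 4, and 2 without a variance trend and 1 to 4 on leaving out a library. With sh3 they numbered 5, and 3 with the replicate block, where LY9 (0.60, adjusted p = 0.0898, limma) and SLAMF1 (-0.85, adjusted p = 0.0527) lost their calls, and 1 to 5 on leaving out a library. Between hairpins they numbered 2 throughout. The labels do not say whether a letter marks a shared culture or day. Deviations of same-letter libraries correlated at -0.062 to 0.058, a check too weak to decide this with 2 or 3 libraries per group. Fitting the letter as a replicate block gave 3, 4, 3 and 2 called members in the 4 comparisons. The block gave 1292 called genes over both hairpins, against 1768 without it, and 549 against 876 with sh1. Leaving out 1 library gave 339 to 1892 called genes over both hairpins, 160 to 784 with sh1, 854 to 2926 with sh3 and 926 to 1765 between hairpins, the lowest of the first 3 being without control C. Among other genes named, calls over both hairpins lost without a variance trend had adjusted p of 0.0578 to 0.114 (limma; THOC2, STAG2, NCSTN, AL139011.2, SH3BP2, CSK, ARHGEF7, CD79A, BLK and PECAM1), and those lost with the block 0.0521 to 0.088 (THOC2, NCSTN, SH3BP2, PRF1 and PECAM1). Signs changed for uncalled values. CD48 over both hairpins ran from -0.089 to 0.0056 on leaving out a library, and with sh3 it was -0.0093 with equal upper quartiles, -0.010 quantile normalized, -0.0097 with the replicate block and -0.039 to 0.056 on leaving out a library. F11R was -0.026 with the block and -0.066 to 0.11 on leaving out a library, ARHGEF7 with sh1 was -0.028 (without control C) to 0.15, and PTPN6 with sh1 was -0.084 with the block and -0.20 to 0.19 on leaving out a library. The cause of these changes was not tested. Other scalings put the median log2 change of all genes at 0.0222 or less in size. They moved the higher share of called genes from 51.4% to between 44.3% and 60.7% over both hairpins, and from 45.7% to between 40.3% and 55.1% with sh1. The 2 control libraries limit every comparison with control, and steps near 1 normalized count limit SLAMF6 and SLAMF7.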
